A study of Mus musculus with 6 samples.

Results

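Cathepsins are proteases of the endosome and lysosome. This report follows 10 of them, Ctsa, Ctsb, Ctsc, Ctsd, Ctsf, Ctsh, Ctsk, Ctsl, Ctss and Ctsz, in cultured mouse microglia. They were taken by gene symbol from the deposited tables, in which all 10 were among the 41079 genes listed, and all 10 were among the 14618 genes with enough counts to test. RNA came from primary microglia of C57Bl/6N mice aged 1 to 3 days, which were grown as mixed glia from pooled brains, fed with L-929 conditioned medium and collected by shaking. Control cultures, 3 libraries, were held in serum-free DMEM/F12. Optimized cultures, also 3 libraries, received the same medium with the cytokines hTGF-β1, hCX3CL1 and hIL-34 at 100 ng/mL apiece, and per the study's methods also 0.1× insulin-transferrin-selenium, 1.5 µg/mL cholesterol and a coating of collagen IV at 2 µg/mL. The labels of the treated libraries name only the cytokines, and no library received a single supplement, so the supplements cannot be told apart. Per the study's methods, the mixed glia were grown in medium with serum for weeks, and microglia were collected from them on several days. In every condition the collected cells then adhered briefly in medium with serum before it was exchanged. For these libraries, the day of collection and the time in culture after it are not given in the sources used here.

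Cathepsins are made as inactive precursors, are carried to the lysosome largely on mannose 6-phosphate receptors, and are activated there by cleavage at acid pH. They fall into aspartic proteases (Ctsd), cysteine proteases of the papain family (Ctsb, Ctsc, Ctsf, Ctsh, Ctsk, Ctsl, Ctss and Ctsz) and a serine carboxypeptidase (Ctsa). In microglia they digest proteins taken up by phagocytosis, and cystatins and other small inhibitors restrain those of the cysteine class.

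In the optimized cultures 5 of the 10 cathepsins were higher, 1 was lower and 4 did not pass the test. Ctsh, Ctsd and Ctsl rose 3.22-fold, 3.09-fold and 2.56-fold, Ctsf and Ctss rose by 1.54-fold and 1.38-fold, and Ctsc fell to 0.65 times its control level. Ctsa, Ctsb, Ctsk and Ctsz had adjusted p-values of 0.05 or more (quasi-likelihood F-test of edgeR, adjusted by Benjamini-Hochberg over all genes tested). In the same fit 14.7% of all genes tested were called higher and 15.2% were called lower. When TMM was left out, 32.3% of all calls were in the higher direction, against 49.1%, while the counts of cathepsins called stayed at 5 and 1. The median log2 fold change (log2FC, optimized minus control) of the 10 was 0.44, beside 0.0079 over all genes tested. The RNA is bulk RNA, in which fewer cells of a type and less RNA per cell cannot be told apart.

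The libraries were sequenced to between 20628148 and 27261839 counts. The first library of each condition stood apart from the other 2 in Malat1, a nuclear long non-coding RNA chosen here after its values were seen. It had 386 CPM (counts relative to the library's total, after TMM scaling) in optimized 1 against 59.0 and 58.3 in optimized 2 and 3, and 146 CPM in control 1 against 76.9 and 61.8 in control 2 and 3. Of the 10 cathepsins, 10 had their lowest optimized value in optimized 1 and 9 had their lowest control value in control 1. The same was not counted over all genes tested, so this is not shown to be particular to the cathepsins. The part of this difference between libraries in the results was not tested.

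Microglial markers were abundant. The summed level of 9 of them (Aif1, Csf1r, Itgam, Cx3cr1, Tmem119, P2ry12, Fcrl2, C1qa and Trem2) was 6956 to 7512 CPM in control and 9237 to 12317 CPM in optimized libraries, with 6 of the 9 called higher and 2, Aif1 and Csf1r, lower. Without control 2 the adjusted p was 0.15 for Aif1 and 0.067 for Trem2, one of the 6, and without control 1 it was 0.052 for Csf1r. Markers of other cells were low. The summed levels in control and optimized libraries were 2.05 to 3.41 and 3.92 to 4.25 CPM for 5 neuronal markers, 22.1 to 25.0 and 10.8 to 12.4 CPM for 4 astrocyte markers, and 96.8 to 102 and 114 to 142 CPM for 4 oligodendrocyte markers. Of these lists 1 neuronal and 1 oligodendrocyte marker were called higher and 1 astrocyte marker lower, and the adjusted p of the oligodendrocyte marker, Mbp, was 0.10 without control 1 and 0.095 with library size alone. The 6 fibroblast markers summed to 34.5 to 48.7 CPM in control and 31.0 to 151 CPM in optimized libraries, and none of the 6 passed the test. The highest sum was in optimized 3, where Col3a1 had 72.0 CPM against 11.9 and 8.98 CPM in optimized 1 and 2. Of 5 neutrophil markers, S100a9 and Ly6g had no counts, and the list summed to 0.262 to 0.408 CPM in control and 1.69 to 74.2 CPM in optimized libraries. The highest of these sums, in optimized 1, was almost all Ltf, with 1534 counts there and at most 3 in each other library. S100a8, at 6 counts or fewer in control and 30 or more in optimized libraries, was called higher. The part of these cells in the results was not tested.

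The upstream sequences of 3 members that carry the letters CACGTG are shown, Ctsd and Ctsf, which rose, and Ctsa, which did not pass the test. CACGTG is the core of the E-box, to which the lysosomal gene regulators TFEB and TFE3 bind, and is in capitals. The sequence of Ctsc, the member that fell, is shown beside them with GAGGAAG, a core of sites for the myeloid factor PU.1, in capitals on either strand. Each run is the 250 bases before a RefSeq start site on build GRCm38.p6, read 5′ to 3′ on the gene's strand, from chr7:142387828-142388077 (minus strand) for Ctsd, chr19:4854915-4855164 (plus) for Ctsf, chr2:164833523-164833772 (plus) for Ctsa and chr7:88277835-88278084 (plus) for Ctsc.
Ctsd: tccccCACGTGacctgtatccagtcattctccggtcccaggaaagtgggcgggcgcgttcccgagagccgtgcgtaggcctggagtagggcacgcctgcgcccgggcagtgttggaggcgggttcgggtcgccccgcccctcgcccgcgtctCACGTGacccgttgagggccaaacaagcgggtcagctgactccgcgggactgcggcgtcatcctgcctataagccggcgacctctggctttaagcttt
Ctsf: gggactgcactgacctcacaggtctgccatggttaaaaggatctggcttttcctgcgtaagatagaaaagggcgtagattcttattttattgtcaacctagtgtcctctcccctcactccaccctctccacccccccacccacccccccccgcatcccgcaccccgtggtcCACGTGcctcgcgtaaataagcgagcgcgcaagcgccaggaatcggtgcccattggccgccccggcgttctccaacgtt
Ctsa: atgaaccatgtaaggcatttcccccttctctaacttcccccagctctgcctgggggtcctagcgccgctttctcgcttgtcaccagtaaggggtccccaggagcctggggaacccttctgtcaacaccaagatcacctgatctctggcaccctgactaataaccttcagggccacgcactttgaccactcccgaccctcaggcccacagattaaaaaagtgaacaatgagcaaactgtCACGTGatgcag
Ctsc: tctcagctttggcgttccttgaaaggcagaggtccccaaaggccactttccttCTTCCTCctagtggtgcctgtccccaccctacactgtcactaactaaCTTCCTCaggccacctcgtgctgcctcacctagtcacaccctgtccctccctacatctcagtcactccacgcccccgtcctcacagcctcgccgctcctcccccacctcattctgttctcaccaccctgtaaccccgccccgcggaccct

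Windows from 250 bases before to 50 after a start site were in the RefSeq table for 8 of the 10 members. Ctsb and Ctsh had no entry. CACGTG, which reads the same on both strands, was in a window of 4 of the 8, Ctsa, Ctsd, Ctsf and Ctsl, and in those of 8.11% of all 26742 genes in the table and 11.4% of the tested genes found there. The longer TCACGTGA, which contains CACGTG and likewise reads the same on both strands, was in windows of Ctsa and Ctsd, of 1.14% of all genes and of 2.12% of the tested genes. GAGGAAG, searched on both strands, was in windows of Ctsc, Ctsk and Ctss, of 15.1% of all genes and of 16.3% of the tested genes. TGANTCA, the letters of an AP-1 site, was in none of the 8, in 8.97% of all genes and in 6.53% of the tested genes. In Ctsd the matches to CACGTG began 245 and 98 bases before the start. Ctsa had a further window, at chr2:164832622-164832921 (plus), that held none of these sequences. The letters in these windows are a description and show no binding.

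Compared per length, as FPKM (fragments scaled for gene length and library size, as deposited), the 10 transcripts covered more than 4 orders of magnitude. Ctsd was at 10443, 10486 and 12010 FPKM in control and 24514, 36342 and 31125 FPKM in optimized libraries, so that its rank among all genes was 3 in each control library and 1 in each optimized library. Ctsb followed with 3671 ± 260 FPKM (SD, n = 3) in control and 3462 ± 570 FPKM (SD, n = 3) in optimized cultures, between rank 10 and rank 12 in every library. Next came Ctss (1748 ± 147 and 2189 ± 278 FPKM, SD, n = 3 each) and Ctsz (1581 ± 117 and 1917 ± 332 FPKM, SD, n = 3 each), whose ranges overlapped in both conditions, although Ctss was above Ctsz in each of the 6 libraries. Ctsa was at 640 ± 24.2 and 727 ± 92.8 FPKM (SD, n = 3 each).

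Below these the order of the means was alike in both conditions, but the neighbours that overlapped were not. Control cultures had Ctsl at 240 ± 20.5 FPKM, Ctsh at 148 ± 12.4 FPKM and Ctsc at 146 ± 9.69 FPKM (SD, n = 3 each), and the ranges of Ctsh and Ctsc overlapped. Optimized cultures had Ctsl at 556 ± 87.8 FPKM, Ctsh at 433 ± 61.7 FPKM and Ctsc at 86.0 ± 7.87 FPKM (SD, n = 3 each), and the ranges of Ctsl and Ctsh overlapped while Ctsc lay below both. Ctsf was low, at 20.3 ± 0.71 and 28.4 ± 3.88 FPKM (SD, n = 3 each). Ctsk was at 0.66 ± 0.16 and 0.67 ± 0.29 FPKM (SD, n = 3 each), which is near the lower limit of what these libraries measure. All other neighbours in the order were apart in every library of their condition.

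**Figure D1:**
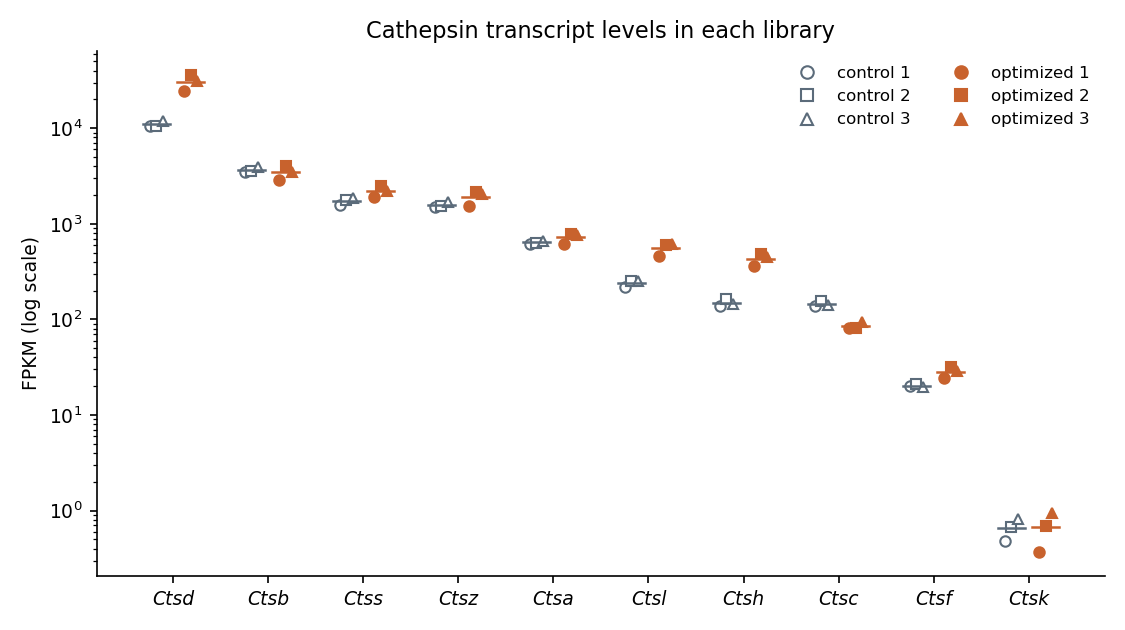
FPKM of each cathepsin (log axis) in the 3 control libraries (open grey symbols) and the 3 optimized libraries (filled orange symbols), with the mean of each condition as a line. Ctsd, Ctsl, Ctsh, Ctsf and, by a narrow margin, Ctss are higher and Ctsc is lower in all 3 optimized libraries, and optimized 1 (filled circle) is the lowest of its condition for every gene.

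The 10 transcripts together took 4.65%, 4.73% and 5.29% of all counts in control libraries 1 to 3 and 7.58%, 10.4% and 8.99% in optimized libraries 1 to 3. The difference lay in Ctsd. The share of Ctsd was 2.17% ± 0.18 (SD, n = 3) in control and 6.07% ± 1.03 (SD, n = 3) in optimized cultures, whereas the other 9 took 2.73% ± 0.18 and 2.92% ± 0.37 (SD, n = 3 each), with overlapping ranges.

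**Figure D2:**
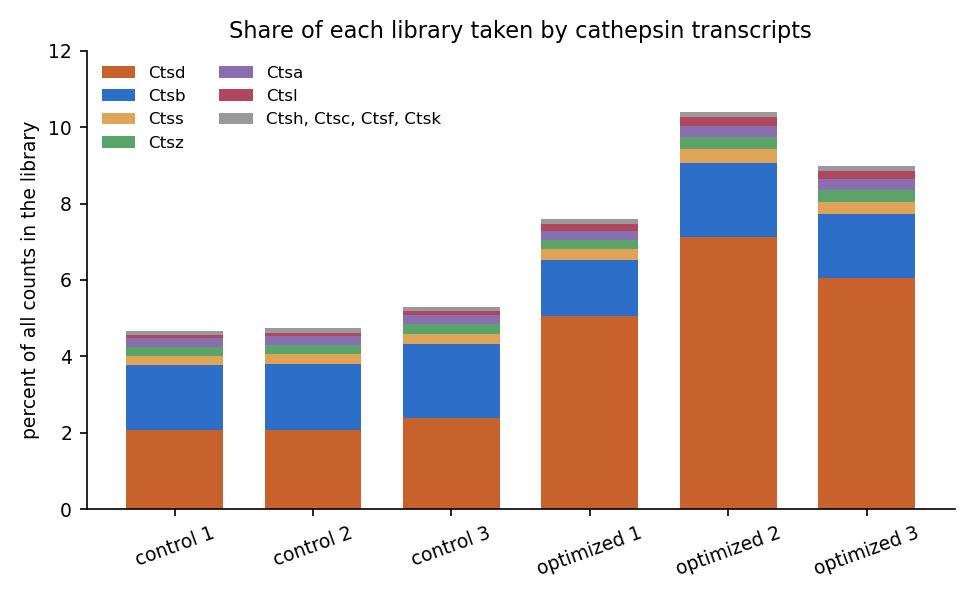
Share of all counts of a library, in percent, that fell on each cathepsin, stacked per library. The full bars reach 4.65% to 5.29% in control and 7.58% to 10.4% in optimized libraries, and Ctsd is the segment that widens.

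Ratios of 2 genes within a library do not depend on how libraries are scaled. The FPKM of Ctsd was 2.99, 2.95 and 3.03 times that of Ctsb in control libraries and 8.50, 9.03 and 8.95 times in optimized libraries. The spread of this ratio within a condition (SD 0.039 and 0.28) was far smaller than the difference between conditions. Of the summed FPKM of the 10 cathepsins, Ctsd made up 57.2% ± 0.77 in control and 76.4% ± 0.87 in optimized cultures (SD, n = 3 each), and Ctsb 19.1% ± 0.076 and 8.66% ± 0.21 (SD, n = 3 each). Ctsh and Ctsc were about equal in control libraries, with ratios of 1.01, 1.04 and 1.01, and Ctsh was 4.47, 5.89 and 4.78 times Ctsc in optimized libraries.

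Ctsd encodes the main aspartic endopeptidase of the lysosome and lies on chromosome 7 of GRCm39 from 141929646 to 141941775 (minus strand). It was at 19337, 19331 and 23653 CPM in control libraries and at 49275, 79229 and 63791 CPM in optimized libraries. The lowest optimized library was thus above the highest control library. Its log2FC was 1.63 (standard error, SE, 0.19, adjusted p = 0.00014). It ranged from 1.43 to 1.78 over the 16 alternatives.

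Among the cysteine endopeptidases, Ctsl, which cuts a wide range of proteins in the lysosome, lies on chromosome 13 from 64507151 to 64518704. It had 748, 865 and 927 CPM in control and 1706, 2467 and 2323 CPM in optimized libraries, with no overlap. It had a log2FC of 1.35 (SE 0.15, adjusted p = 9.7e-05). Over the alternatives it stayed between 1.2 and 1.5.

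Ctss, on chromosome 3 from 95433963 to 95463717, encodes a cysteine endopeptidase that stays active at neutral pH and cleaves the invariant chain of class II molecules. Its levels were 2222, 2487 and 2792 CPM in control and 2892, 4051 and 3421 CPM in optimized libraries. The groups did not overlap, but optimized 1 was close to control 3. The log2FC of 0.47 (SE 0.15) had an adjusted p-value of 0.036, which was 0.15, 0.13, 0.098 and 0.090 without control 1, control 2, optimized 2 and optimized 3, and 0.12 to 0.19 by limma on FPKM values.

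Ctsf, on chromosome 19 from 4905118 to 4915986, encodes a less abundant cysteine protease of the lysosome. It was at 39.8, 41.7 and 41.7 CPM in control and 52.0, 74.3 and 63.8 CPM in optimized libraries, again without overlap. Its log2FC was 0.63 (SE 0.12, adjusted p = 0.0036). Exons of Actn3 on the other strand overlap Ctsf, but had a mean count of only 0.111% of that of Ctsf.

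Ctsb, which acts as an endopeptidase and also removes dipeptides from the carboxyl end, lies on chromosome 14 from 63358384 to 63383372. It had 15975, 16224 and 19337 CPM in control and 14339, 21698 and 17642 CPM in optimized libraries. The optimized libraries spread on both sides of the control libraries. The log2FC of 0.059 (SE 0.17, adjusted p = 0.84) turned negative, to -0.079, with library size alone, and to -0.11 without optimized 2. Its exons share 1184 bases with those of Fdft1 on the other strand, whose mean count was 1.04% of that of Ctsb.

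Ctsk, a collagen-degrading cysteine protease known from osteoclasts, is the neighbour of Ctss on chromosome 3, from 95406178 to 95416732, with 17230 bases between them. It had 17, 25 and 36 counts in control and 13, 29 and 33 counts in optimized libraries. The ranges of both conditions overlapped, and the log2FC of 0.15 was smaller than its SE of 0.40 (adjusted p = 0.82). Its sign turned in some of the alternatives.

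Of the exopeptidases, which trim proteins from their ends, Ctsh was called higher and Ctsc lower, and Ctsz and Ctsa did not pass the test. Ctsh, an aminopeptidase on chromosome 9 from 89936205 to 89958148, had 224, 261 and 248 CPM in control and 636, 912 and 811 CPM in optimized libraries. Every optimized library was at more than 2 times the level of any control library. The log2FC of 1.69 (SE 0.14, adjusted p = 1.1e-05) was the largest of the 10, although it differed from that of Ctsd by less than the standard error of either.

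Ctsc encodes dipeptidyl peptidase 1, which activates serine proteases of granules in other immune cells, and lies on chromosome 7 from 87927092 to 87960096. It had 716, 811 and 793 CPM in control and 460, 501 and 548 CPM in optimized libraries. It was the only one of the 10 that was lower in all optimized libraries. It had a log2FC of -0.62 (SE 0.10, adjusted p = 0.0011) and stayed between -0.76 and -0.56 over the alternatives.

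Ctsz, a carboxypeptidase also called cathepsin X, lies on chromosome 2 from 174267304 to 174280832. It had 2063, 2145 and 2531 CPM in control and 2321, 3515 and 3185 CPM in optimized libraries. Optimized 1 lay within the control range and the other 2 above it. The log2FC of 0.42 (SE 0.16) had an adjusted p-value of 0.076, which was 0.00059 without optimized 1 and 0.023 by DESeq2. Exons of Nelfcd on the other strand overlap it, with a mean count of 1.77% of that of Ctsz.

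Ctsa, the serine carboxypeptidase that also shields lysosomal sialidase and β-galactosidase from degradation, lies on the same chromosome from 164674778 to 164682961. It was at 2192, 2251 and 2513 CPM in control and 2391, 3296 and 3035 CPM in optimized libraries. As for Ctsz, only optimized 1 overlapped the control range. Its log2FC was 0.33 (SE 0.14, adjusted p = 0.10), and 0.45 (adjusted p = 0.0022) without optimized 1. DESeq2 gave an adjusted p of 0.040 with all libraries. Exons of Pltp on the other strand share 1252 bases with Ctsa, and Pltp had a mean count of 10.4% of that of Ctsa. The strand setting of the counting is not given, so reads in shared exons cannot be told apart.

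By the plain position of the libraries, 5 of the 10 cathepsins had every optimized library above every control library and 1 had every one below. The same held for 21.4% and 22.5% of all genes tested. The 5 and the 1 were those that passed the test. Without optimized 1, 7 of the 10 were called higher, and 4 without control 1, control 2, optimized 2 or optimized 3. Calls over all genes moved too, with 2591 genes called higher without optimized 1 and 1603 to 2079 without each of the other libraries just named, against 2142 with all libraries. Ctsc was called lower in all of these fits.

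**Figure D3:**
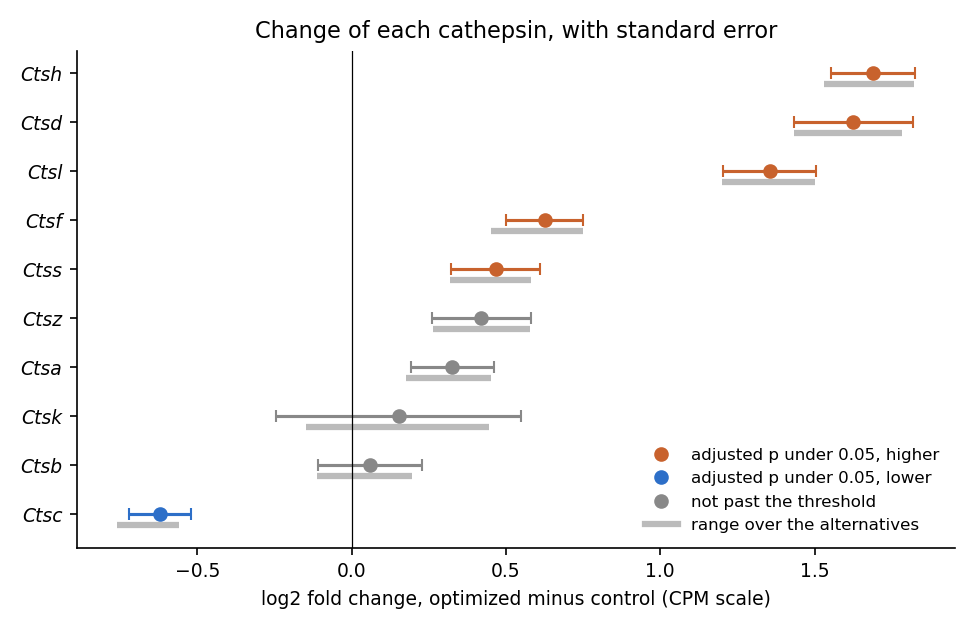
Log2FC of each cathepsin (optimized minus control, on the CPM scale) with its standard error, coloured by whether the adjusted p-value was under 0.05. Grey bars give the range over the alternatives, which spans 0 for Ctsb and Ctsk, and Ctsh, Ctsd and Ctsl stand at 1.35 to 1.69.

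Other cathepsins, outside the 10, were few in these cells. Of 13 further genes, 10 had 0 counts in all 6 libraries, which allows up to 3 counts per library or 0.110 to 0.145 CPM. These were Ctsg, the granule protease of neutrophils, Ctsll3, and Ctsj, Ctsm, Ctsq, Ctsr, Cts3, Cts6, Cts7 and Cts8, mouse cathepsins known from placenta. Ctse, an aspartic protease of the endosomal system, rose, and had the largest log2FC of the 13 cathepsins tested. It had 4.33, 3.96 and 4.69 CPM in control and 29.1, 32.4 and 33.3 CPM in optimized libraries, with a log2FC of 2.87 (SE 0.12, adjusted p = 1.6e-07). Ctso had a log2FC of 0.10 (adjusted p = 0.49) and Ctsw, with under 1 CPM in the mean of each condition, one of 1.21 (adjusted p = 0.076).

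Of 12 inhibitors of cathepsins, 5 had enough counts to test, of which 2 were higher and 0 lower. Both were members of the Ctla2 pair, which encode inhibitors that resemble the propeptide of cathepsin L. Ctla2a had 43.2, 54.2 and 57.1 CPM in control and 154, 228 and 185 CPM in optimized libraries, a log2FC of 1.88 (SE 0.16, adjusted p = 1.2e-05). Ctla2b had one of 2.39 (SE 0.12, adjusted p = 5.0e-07). These 2 genes are near-identical copies, and how the counting split reads between them is not given, so their separate values are uncertain.

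The 3 cystatins tested did not pass the test. Cst3 (cystatin C), the secreted inhibitor of cysteine cathepsins, was at 1140 ± 153 and 1463 ± 435 CPM (SD, n = 3 each), with a log2FC of 0.36 and an adjusted p-value of 0.22. Cst7, an inhibitor within the endosomal system, had a log2FC of 0.064 (adjusted p = 0.80), which turned to -0.072 with library size alone. Cstb, a cytosolic inhibitor, had one of -0.42 (SE 0.19, adjusted p = 0.13). It was -0.56 (adjusted p = 0.022) with library size alone and -0.45 (adjusted p = 0.019) with replicate numbers as a block. Within a library, the FPKM of Ctsl was 0.17 ± 0.0082 times that of Cst3 in control and 0.34 ± 0.042 times in optimized cultures (SD, n = 3 each). The same ratio for Ctsb was 2.54 ± 0.11 and 2.10 ± 0.26 (SD, n = 3 each).

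Of 7 other peptidases of the lysosome, 6 had enough counts and 5 of these were higher and 0 lower, with a median log2FC of 0.44. Lgmn encodes legumain, which converts several cathepsins from their single-chain to their mature form. It was at 1523, 1575 and 1789 CPM in control and 2260, 3022 and 2785 CPM in optimized libraries, a log2FC of 0.72 (SE 0.13, adjusted p = 0.0021). Tpp1, a tripeptidyl peptidase, had one of 0.67 (SE 0.10, adjusted p = 0.00048). Dpp7, Prcp and Cpq had log2FC values of 0.48, 0.40 and 0.33. Without control 1 the adjusted p was 0.073 for Dpp7 and 0.16 for Cpq, and with library size alone it was 0.15 for Cpq and 0.0504 for Prcp.

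The enzymes that form a complex with cathepsin A were all higher. Neu1 (sialidase) and Glb1 (β-galactosidase) both had a log2FC of 0.48, with adjusted p-values of 0.011 and 0.0067, and that of Neu1 was 0.060 without control 1. Galns, a sulfatase of the same complex, was higher, at 288 ± 34.5 CPM in optimized against 99.3 ± 7.70 CPM in control cultures (SD, n = 3 each), with its log2FC at 1.54 (SE 0.11, adjusted p = 4.7e-06).

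Of 9 genes for sorting enzymes to the lysosome, 5 were higher and 2 were lower. Scarb2 (LIMP-2), the carrier of glucocerebrosidase, was higher, at 695 ± 31.9 CPM in optimized against 240 ± 2.42 CPM in control cultures (SD, n = 3 each), with its log2FC at 1.53 (SE 0.085, adjusted p = 9.3e-07). Sort1 (sortilin) and Gnptab, which starts the mannose 6-phosphate tag, had log2FC values of 0.93 and 0.73. Gnptg (0.49), a partner of Gnptab, had an adjusted p of 0.064 without control 2. Lrp1, an endocytic receptor, had 1600, 1231 and 1125 CPM in control and 2860, 1600 and 1850 CPM in optimized libraries, so that optimized 1 stood apart and the groups overlapped. Its log2FC of 0.67 (adjusted p = 0.039) ranged from 0.39 to 0.83 with 1 library left out, and its adjusted p was 0.15 without control 2 and 0.12 with library size alone. Neither receptor of that tag was called higher. Igf2r was lower with a log2FC of -0.73 (SE 0.14, adjusted p = 0.0029), and M6pr had one of -0.12 (adjusted p = 0.42), which was -0.25 (adjusted p = 0.039) with library size alone. Sorl1, a sorting receptor related to sortilin, was also lower (-0.69, adjusted p = 0.0017).

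All 4 genes of the MiT/TFE family, to which the regulators TFEB and TFE3 named above belong, were lower, with a median log2FC of -0.42. Tfec had 27.5, 28.2 and 28 CPM in control and 10.4, 11.2 and 9.34 CPM in optimized libraries (log2FC -1.43, standard error 0.10, adjusted p = 5.4e-06). The changes of Mitf (-0.47), Tfeb (-0.37) and Tfe3 (-0.26) were small, with adjusted p-values of 0.014, 0.042 and 0.032. On leaving out 1 library the highest adjusted p was 0.066 for Mitf (without optimized 3), 0.13 for Tfeb (without control 1) and 0.13 for Tfe3 (without control 3). RNA levels do not show how much of these factors is in the nucleus.

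Class II loading, in which cathepsin S takes part, went both ways. Of 8 genes 7 had enough counts, with 3 higher and 1 lower. Cd74, the invariant chain, was lower, at 31.8 ± 4.97 CPM in optimized against 54.5 ± 5.03 CPM in control cultures (SD, n = 3 each), with its log2FC at -0.78 (SE 0.12, adjusted p = 0.0010). H2-DMa, H2-Ab1 and H2-DMb1 had log2FC values of 1.82, 1.46 and 0.99, at 3.42 to 21.6 CPM in the control mean. H2-Aa (log2FC -0.50, adjusted p = 0.67), with at most 16 counts in a library, and Ciita (0.32, adjusted p = 0.35) did not pass. Ifi30, a thiol reductase of the lysosome, had one of 0.41 (adjusted p = 0.072, and 0.034 by DESeq2). The serine proteases that cathepsin C activates were nearly silent. Elane and Gzmb had 0 counts in every library, while Gzma had at most 5 and Prtn3 at most 10.

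**Figure D4:**
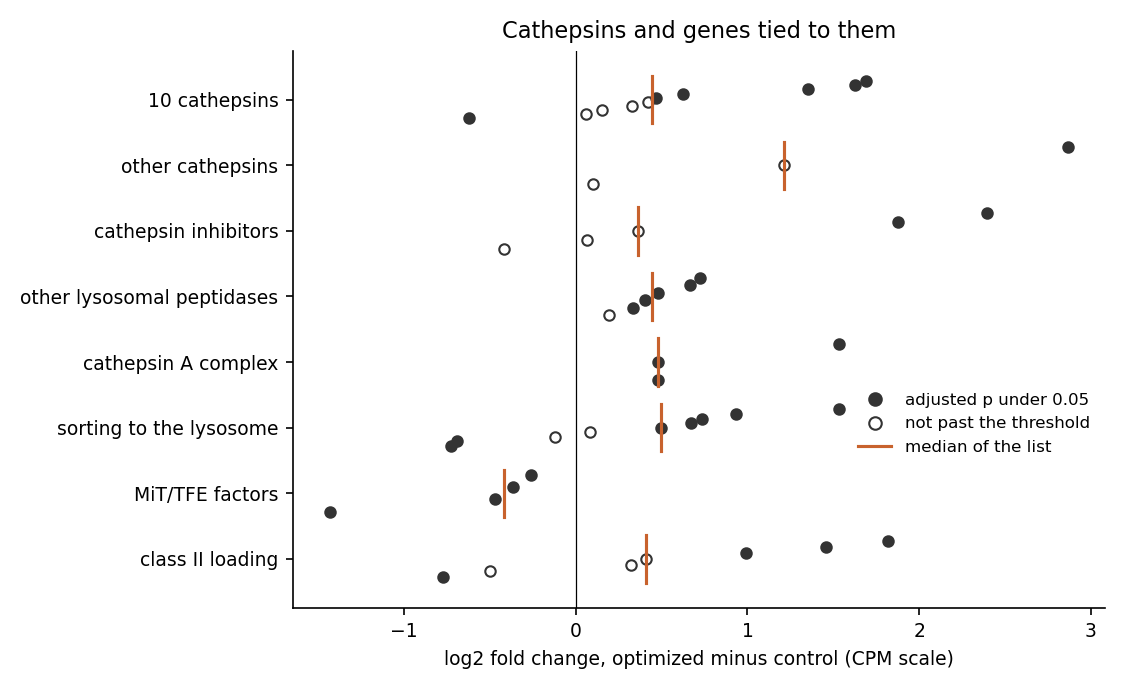
Log2FC (optimized minus control, CPM scale) of the tested genes of each list, with filled points for an adjusted p-value under 0.05 and the median of the list as an orange line. Ctse stands at 2.87, the 4 MiT/TFE factors all lie below 0, and the tested peptidases all lie above 0.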

How the data were processed

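Per the labels and the study's methods, the authors aligned read pairs to the mouse assembly mm39, the same as GRCm39, using HISAT2, and obtained gene counts from featureCounts. They deposited raw counts and, for the same gene symbols, FPKM values. Versions, annotation, strand setting and the length behind FPKM are not given in the sources used here. Groups and replicate numbers were read from the labels.

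The deposited counts were fitted in edgeR 4.0.16 (R 4.3.3) with filterByExpr, TMM factors and glmQLFit, and tested by glmQLFTest without further terms. P-values were adjusted by Benjamini-Hochberg over the 14618 genes that passed the filter, with a threshold of 0.05. The SE is the log2FC divided by the square root of F. The common dispersion was 0.0164, a coefficient of variation of 0.13. The study calls the libraries biological replicates, but its labels name no separate litters, so p-values measure the spread between these libraries. Alternatives were RLE factors, no TMM, TMM factors computed without the cathepsins, DESeq2 1.42.0, no filter, a minimum of 10 counts per library, the replicate block, each library left out, and limma 3.58.1 on FPKM with a pseudocount of 1 or 0.1, or with 1 and a mean FPKM of 1 or more. Such log2(FPKM + pseudocount) values understate the change of low genes. Each tool was first tried on simulated counts, limma on log2(CPM + 1) and not on FPKM. Genes outside the 10 come from lists of related genes. Those named are ones called with the largest changes, ones tied to a member, and some others that were not called. Members and lists were chosen with earlier results of these data known. Of the microglial and the oligodendrocyte markers chosen, 1 each is not reported here and was left out of the sums. Gene positions follow GENCODE M39 (GRCm39), and upstream sequences RefSeq (GRCm38.p6).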

Additional observations from a re-analysis of the deposited data

How the results depend on the processing

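In all 16 alternatives Ctsd, Ctsh, Ctsl and Ctsf were called higher and Ctsc lower. Ctsk could be fitted in 15, since its mean FPKM is under 1. Ctss was not called by limma on FPKM (log2FC 0.32 with each pseudocount and filter) and ranged from 0.33 to 0.58 with 1 library left out. Ctsa was called by DESeq2 (0.33) and ranged from 0.22 to 0.45 with 1 library left out. Ctsz was called by DESeq2 (0.42) and without the filter (0.40), and ranged from 0.28 to 0.58 with 1 library left out. The log2FC of Ctsb turned to -0.079 without TMM and to -0.096 by limma on FPKM with either pseudocount or the filter, and ranged from -0.11 to 0.20 with 1 library left out. That of Ctsk was -0.00015 and -0.030 by limma with pseudocounts of 1 and 0.1, and ranged from -0.15 to 0.45 with 1 library left out. The cause of these changes was not tested.

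Genes called higher numbered 1176 by limma for a mean FPKM of 1 or more, against 2142. Without TMM 32.3% of the calls were higher, against 49.1%, and the median of all genes moved to -0.12. Deviations of same-numbered libraries correlated at 0.40, -0.034 and 0.24, and those of the other pairs at -0.43 to 0.34. With 3 libraries per condition, these values cannot tell whether the numbers pair the samples. The replicate block called 2401 genes higher and 2523 lower, and Ctsz (log2FC 0.40, adjusted p = 0.026) in addition to the cathepsins already called. Among the related genes and markers it also called Cstb lower (-0.45, adjusted p = 0.019) and Ifi30 (0.39, adjusted p = 0.017) and Col1a2 (0.82, adjusted p = 0.041) higher. Ctsk had at most 36 counts in a library.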

Other observations

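Genes of the osteoclast programme, to which Ctsk belongs, did not move as 1 group. Of 8 such genes 5 had enough counts to test, with 1 higher and 3 lower in optimized cultures. Mmp9, a secreted gelatinase, had a log2FC of -4.60. Dcstamp, needed for the fusion of macrophages, was lower, at 0.72 ± 0.29 CPM in optimized against 5.38 ± 0.35 CPM in control cultures (SD, n = 3 each; log2FC -2.91, adjusted p = 4.3e-05 by edgeR). Atp6v0d2, a subunit of the proton pump, had a log2FC of -0.31, and its adjusted p-value of 0.014 was 0.058 without control 3. Nfatc1, a transcription factor of osteoclasts, was higher, with a log2FC of 0.58 (adjusted p = 0.00064). Acp5, tartrate-resistant acid phosphatase, was at 1.2 ± 0.65 and 1.29 ± 0.67 CPM (SD, n = 3 each), and Calcr had 0 counts in every library.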
